A study of Mus musculus with 18 samples.

Results

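The genes that encode collagen chains were examined in colon tissue of mice overexpressing HIF2 in the colon and of wild-type mice. Members were all rows of the deposited expression table whose symbol has the form of a collagen chain, Col followed by a type number, a and a chain number, and there were 43 of them among 27131 rows. The HIF2 group held 9 libraries, with the genotype written as Hif2a LFL in the sample labels and as LSL in the design text. The WT group held 9 libraries, with the genotype Hif2a +/+. All mice were C57BL/6 and untreated. The sources used here do not give the promoter or Cre behind the altered allele, the age of the mice or the stretch of colon taken. Libraries are named by group and by the replicate number of the label, 0 to 8. Whether every library is its own mouse is not stated, and the p-values below measure spread among libraries, which may be technical.

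Collagens are extracellular proteins in which 3 chains, each encoded by its own gene or by copies of the same gene, wind around each other in a helix. Fibrillar collagens form the tensile fibres of the submucosa, the muscle layers and the lamina propria. Type IV collagen forms the sheet of basement membranes under epithelium and around muscle cells, nerves and vessels, and the other classes link, coat or anchor these structures. Most collagen RNA of the intestine is made by fibroblasts, smooth muscle cells, endothelium and other mesenchymal cells, and some basement membrane chains are also made by epithelium. HIF-2α, encoded by Epas1, is a hypoxia-inducible transcription factor.

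Values were FPKM, fragment numbers divided by transcript length and by the library's total, and were analysed as log2(FPKM + 1), a scale on which low genes show less than their true fold change. Epas1 had a lowest, median and highest value of 16.6, 20.4 and 35.9 FPKM in HIF2 and of 13.8, 18.55 and 23.0 FPKM in WT, and its log2 change of 0.24 (SE 0.14, limma adjusted p = 0.246) was not larger than the spread between libraries. Epithelial markers summed to between 8149 and 12312 FPKM in HIF2 and between 7738 and 11436 FPKM in WT, so colon epithelium was present in every library. Libraries differed in smooth muscle marker RNA. The summed FPKM of 14 smooth muscle markers was 1597 to 3854 in HIF2 replicates 0 to 5 and 80.4 to 206 in HIF2 replicates 6 to 8, against 1282 in WT replicate 3 and 36.4 to 212 in the other WT libraries. In bulk tissue, more cells of a type and more RNA per cell cannot be told apart. Results are therefore also given with the smooth muscle marker mean as a covariate, and without WT replicate 3 and HIF2 replicates 0 to 5.

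Collagen RNA was higher in HIF2 in 6 of the 7 structural classes with a tested gene. The transmembrane class rested on 1 tested gene, Col23a1, whose call was lost with the covariate and in the libraries with little muscle RNA. Of the 43 members, 23 passed the filter of a mean of 1 FPKM over the 18 libraries and were tested. Of these 23, 21 rose in HIF2 and 0 fell (limma, Benjamini-Hochberg adjusted p under 0.05), and 18 of the 21 by 2-fold or more. Over all 13976 genes tested, 11.0% were called higher, 11.1% were called lower and 4.89% rose at least 2-fold. Among the 21 are Col4a6, Col5a3, Col14a1, Col23a1 and Col27a1, whose WT means were 0.4 to 0.847 FPKM. These genes passed the filter only through HIF2, where their means were 1.54 to 5.27 FPKM. For them the filter favoured a rise, so the count of 21 of 23 is partly set by the filter. With no adjustment, 0 members were lower at p under 0.05 in either limma or the exact rank test. After adjustment the rank test called 19 of the 23 higher, against 1227 of all 13976 genes tested. The median log2 change was 1.99 over the tested members and -0.02 over all genes tested. The 2 members that did not pass were Col8a1 and Col10a1, both short-chain collagens. The summed FPKM of the 43 genes was 196 at the lowest, 838 at the median and 1051 at the highest in HIF2, against 64.8, 123 and 325 in WT.

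**Figure D1:**
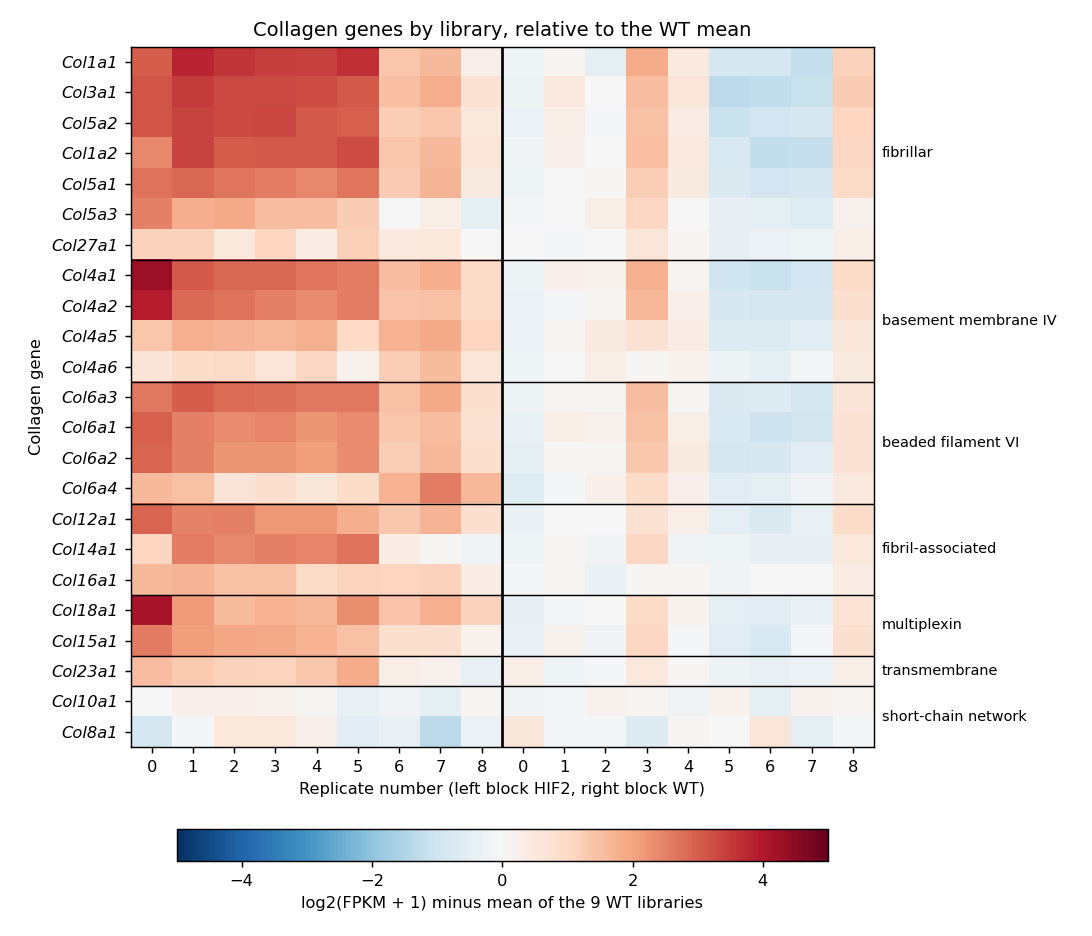
Heat map of the 23 tested collagen genes (rows, grouped by structural class) in each library (columns, HIF2 replicates 0 to 8 on the left and WT replicates 0 to 8 on the right). Colour gives log2(FPKM + 1) minus the mean of the 9 WT libraries, and the HIF2 block is above that mean for most genes, with replicates 6 to 8 paler than replicates 0 to 5 in most rows though not in Col6a4, and with the 2 bottom rows, Col10a1 and Col8a1, near it.

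The libraries did not contribute equally. HIF2 replicate 8 was the lowest HIF2 library for 18 of the 21 genes that rose, and WT replicate 3 was the highest WT library for 18. HIF2 replicates 6 to 8 were all below HIF2 replicates 0 to 5 for 15 of the 23 tested members, against 9.75% of all genes tested. Replicates 0 to 5 of HIF2 were all above the 8 WT libraries other than replicate 3 for 20 of the 23, against 7.26% of all genes. Replicates 6 to 8 of HIF2 were all above those 8 libraries for 8 of the 23, against 7.80% of all genes. Each of the 9 HIF2 libraries was above the WT median for 19 of the 23, against 7.51% of all genes. Groups did not overlap at all for Col4a5 and Col18a1, 2 of the 23 tested, whereas 0.758% of all genes tested had every HIF2 library above every WT library.

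With the smooth muscle markers as a covariate, 16 of the 23 rose and 0 fell, against 6.85% of all genes called higher in that fit, and the median log2 change of the members was 1.01 against 0.03 over all genes. Without WT replicate 3 and HIF2 replicates 0 to 5, which leaves 3 HIF2 and 8 WT libraries with little muscle RNA, 12 rose and 0 fell, against 8.99% of all genes called higher. The members' median was 1.31 there, against 0.02 over all genes. These libraries also differ in the Y-linked gene Ddx3y, which was at 0 to 0.217 FPKM in HIF2 replicates 6 to 8, against 0 to 0.0668 FPKM in WT replicates 5 to 8 and 19.98 to 25.02 FPKM in WT replicates 0, 1, 2 and 4. Between HIF2 replicates 6 to 8 and WT replicates 5 to 8 alone, 5 members rose, namely Col4a5, Col4a6, Col6a3, Col6a4 and Col18a1, and 0 fell, against 4.44% of all genes called higher. The members' median change in these 7 libraries was 1.53, against 0.02 over all genes, and this comparison was chosen after seeing the data. Without HIF2 replicates 6, 7 and 8, 21 rose, against 12.4% of all genes, and the members' median was 2.28, against -0.05 over all genes.

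**Figure D2:**
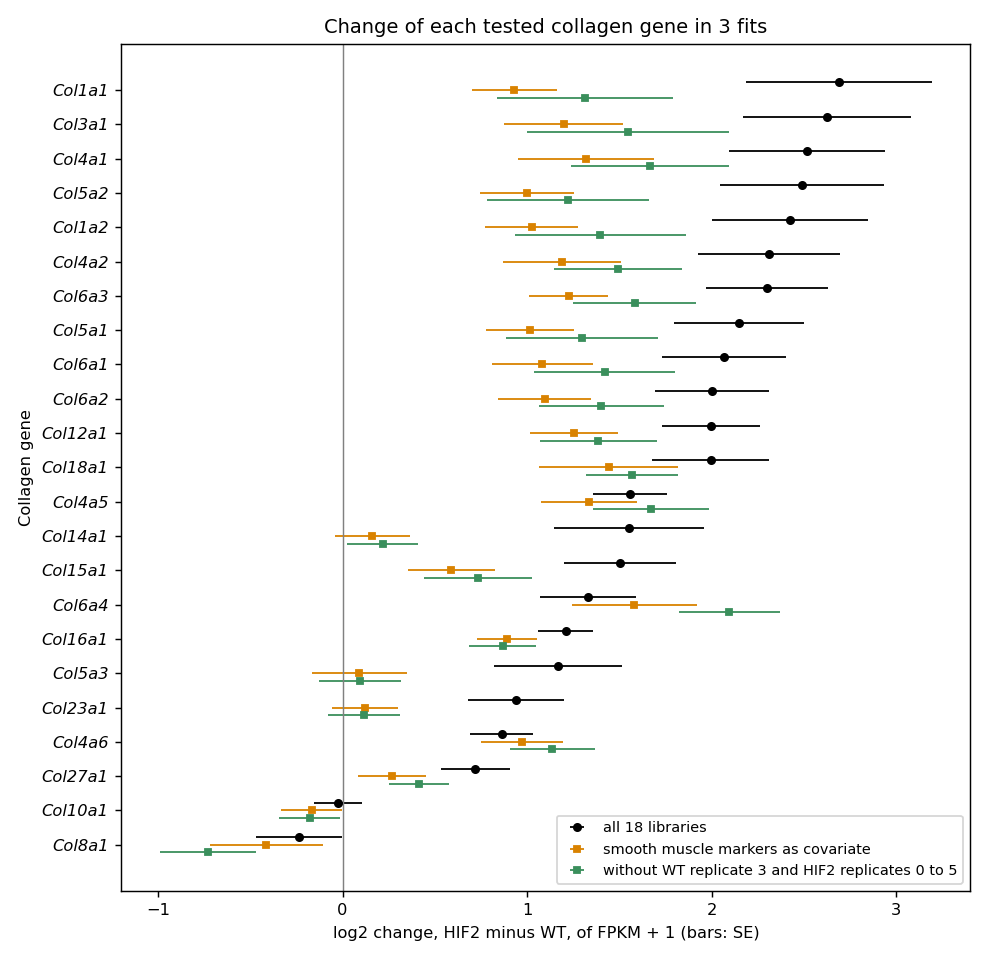
Log2 change (HIF2 minus WT, of FPKM + 1, with SE bars) of each tested collagen gene in 3 fits, with all 18 libraries (black circles), with the smooth muscle marker mean as a covariate (orange squares) and without WT replicate 3 and HIF2 replicates 0 to 5 (green squares). Most genes have smaller changes in the orange and green fits, Col14a1, Col5a3 and Col23a1 come close to 0 there, and Col6a4 and Col4a6 do not become smaller.

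To show the genes beside their upstream sequence, the 250 bases before the RefSeq start site are printed for 4 genes that rose and for Col8a1, which did not pass. The sequences are RefSeq's on the gene's own strand in GRCm38.p6, lie at chr1:45311288-45311537 (plus strand) for Col3a1, chr2:27886175-27886424 (plus strand) for Col5a1, chrX:141474077-141474326 (minus strand) for Col4a6, chr1:90843972-90844221 (minus strand) for Col6a3 and chr16:57754738-57754987 (minus strand) for Col8a1, and share no base with an annotated exon. Capitals mark the motifs searched on both strands, which were the HIF core letters ACGTG or GCGTG, the letters CCAAT and the letters TATAAA.
Col3a1: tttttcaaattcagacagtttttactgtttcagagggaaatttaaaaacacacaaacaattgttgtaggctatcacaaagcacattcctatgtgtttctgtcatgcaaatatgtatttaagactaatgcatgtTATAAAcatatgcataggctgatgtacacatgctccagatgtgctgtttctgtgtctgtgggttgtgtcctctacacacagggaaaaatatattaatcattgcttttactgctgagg
Col5a1: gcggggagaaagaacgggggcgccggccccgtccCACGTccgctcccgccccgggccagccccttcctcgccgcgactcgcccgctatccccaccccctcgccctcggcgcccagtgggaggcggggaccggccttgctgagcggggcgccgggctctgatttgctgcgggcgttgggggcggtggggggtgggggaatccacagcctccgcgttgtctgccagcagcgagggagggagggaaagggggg
Col4a6: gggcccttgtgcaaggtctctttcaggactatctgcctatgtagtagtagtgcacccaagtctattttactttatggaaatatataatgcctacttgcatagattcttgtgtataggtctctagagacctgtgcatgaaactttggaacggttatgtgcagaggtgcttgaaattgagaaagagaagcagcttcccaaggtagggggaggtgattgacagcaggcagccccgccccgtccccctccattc
Col6a3: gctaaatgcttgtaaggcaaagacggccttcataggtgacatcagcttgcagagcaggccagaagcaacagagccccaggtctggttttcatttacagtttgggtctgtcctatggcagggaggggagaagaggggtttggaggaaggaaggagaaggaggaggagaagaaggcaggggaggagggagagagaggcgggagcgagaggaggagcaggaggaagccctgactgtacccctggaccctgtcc
Col8a1: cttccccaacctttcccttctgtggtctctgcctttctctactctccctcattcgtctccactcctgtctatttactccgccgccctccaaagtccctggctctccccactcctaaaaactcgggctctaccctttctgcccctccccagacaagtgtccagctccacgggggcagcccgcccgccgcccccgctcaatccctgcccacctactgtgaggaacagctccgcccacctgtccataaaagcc
Col5a1 held 1 HIF core match and Col3a1 held 1 TATAAA, and the other 3 windows held no match to these letters. Windows were found for 17 of the 21 genes that rose, 19 windows in all because 2 genes had 2 starts. The HIF core letters were in 7 of these 19 windows, 36.8%, and in 38.6% of the 32851 promoter windows of the same length in the table. The CCAAT letters were in 42.1% of the 19 and 33.8% of all, and TATAAA in 5.26% of the 19 and 12.4% of all. A match is a description of the letters and not of a bound site. Col4a1 and Col4a2 run in opposite directions from starts 21 bases apart, so the window of each lies in the other gene.

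Among the fibrillar collagens, all 7 tested genes of 11 rose in HIF2, with a median log2 change of 2.43. Col3a1, the chain of type III collagen found with type I in gut wall and vessels (chromosome 1, 45311538 to 45349706), had the highest mean FPKM of the members. It had a lowest, median and highest value of 56.5, 309 and 399.8 FPKM in HIF2 and of 13.0, 34.5 and 101 FPKM in WT. Its mean was 256 ± 127 FPKM in HIF2 and 43.5 ± 31.5 FPKM in WT (SD, n = 9 each). HIF2 replicates 0 to 5 were all at or above 293 FPKM, replicates 6 to 8 lay between 56.5 and 124 FPKM, and 7 of the 9 HIF2 libraries were above the highest WT library, WT replicate 3. The log2 change was 2.62 (SE 0.45, limma adjusted p = 0.000581). Col1a1, the main chain of type I collagen (chromosome 11, 94936224 to 94953042), had 8.82, 87.45 and 115.5 FPKM as lowest, median and highest in HIF2 and 2.61, 6.08 and 29.0 FPKM in WT. Its log2 change was 2.69 (SE 0.50, limma adjusted p = 0.00106), the highest of the tested members at a pseudocount of 1, whereas Col5a2 was higher at 0.1 (2.86 against 2.857) and at 0.01 (2.91 against 2.876). Col1a2, its partner chain (chromosome 6, 4504814 to 4541544), had 17.4, 96.8 and 124.8 FPKM in HIF2 and 4.175, 11.1 and 32.8 FPKM in WT, a log2 change of 2.43 (SE 0.42). In both genes HIF2 replicates 6 to 8 overlapped the WT range, and 6 HIF2 libraries for Col1a1 and 7 for Col1a2 lay above it.

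**Figure D3:**
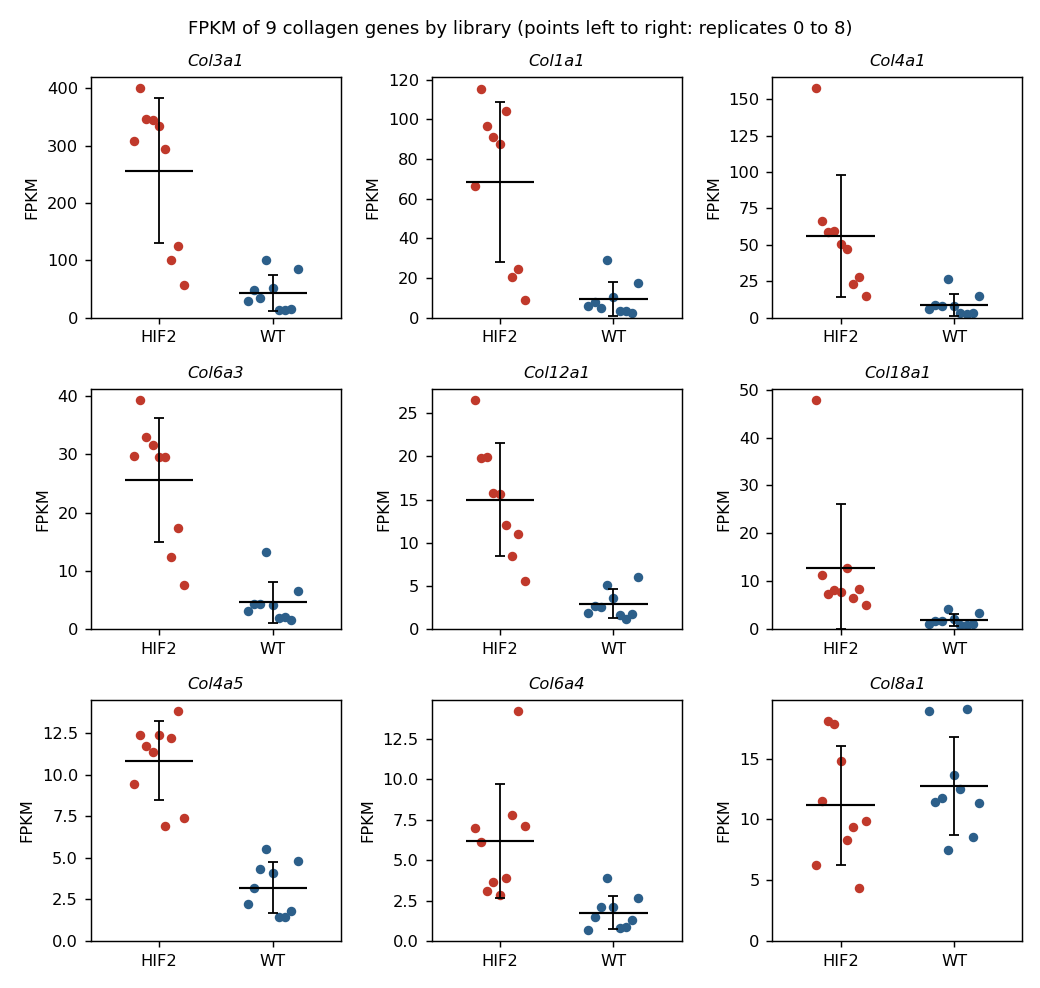
FPKM (linear axes from 0) of 9 collagen genes in each library, HIF2 left in red and WT right in blue, with points ordered by replicate number and bars for the mean and SD, cut at 0. Col3a1, Col1a1 and Col4a1 have HIF2 replicates 6 to 8 next to the WT points, Col4a5 has every HIF2 library above the WT points, and the groups of Col8a1 overlap.

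The type V chains, which form the core on which type I fibrils assemble, followed. Col5a2 lies next to Col3a1 on the same chromosome (45374321 to 45503282). It had 4.99, 34.0 and 42.1 FPKM as lowest, median and highest in HIF2 and 0.924, 2.88 and 10.3 FPKM in WT, and rose by 2.49 (SE 0.44, limma adjusted p = 0.00075). Col5a1 (chromosome 2, 27886425 to 28039514) had 4.045, 20.9 and 25.8 FPKM in HIF2 and 0.911, 2.695 and 7.74 FPKM in WT, and rose by 2.15 (SE 0.35). In HIF2, 6 libraries for Col5a2 and 8 for Col5a1 were above the WT maximum. Col5a3, a further type V chain with a narrower tissue range, had 0.286, 4.055 and 9.02 FPKM in HIF2 and 0.15, 0.751 and 2.58 FPKM in WT. Its change of 1.17 (SE 0.35, limma adjusted p = 0.0207) was 0.09 with the smooth muscle covariate and 0.09 in the libraries with little muscle RNA, and passed in neither. Col27a1, a fibrillar collagen of cartilage and other connective tissue, had 0.485, 1.14 and 2.43 FPKM in HIF2 and 0.12, 0.472 and 1.26 FPKM in WT. It rose by 0.72 (SE 0.19, limma adjusted p = 0.00942), a call lost under the same 2 alternatives, at 0.27 and 0.41. The calls of Col1a1, Col1a2, Col3a1 and Col5a2 were lost in the libraries with little muscle RNA, where their changes were 1.31, 1.40, 1.55 and 1.22 with SEs of 0.48, 0.46, 0.55 and 0.44, and were kept with the covariate, at 0.93, 1.02, 1.2 and 1.0. Col5a1 passed in both.

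All 4 tested type IV chains of 6 rose. Col4a1 and Col4a2, whose chains combine into the collagen of most basement membranes, lie head to head on chromosome 8 (11198423 to 11312826 and 11312805 to 11449287). Col4a1 had 14.7, 50.4 and 157 FPKM as lowest, median and highest in HIF2 and 2.75, 8.06 and 26.6 FPKM in WT. It rose by 2.52 (SE 0.42, limma adjusted p = 0.000471). Col4a2 had 9.58, 30.3 and 82.2 FPKM in HIF2 and 1.97, 4.22 and 16.4 FPKM in WT, and rose by 2.31 (SE 0.38). The changes were 1.32 for Col4a1 and 1.19 for Col4a2 with the smooth muscle covariate and 1.66 and 1.49 without WT replicate 3 and HIF2 replicates 0 to 5, smaller than with all libraries, and passed in each. HIF2 replicate 0 was highest for both, and 7 HIF2 libraries for Col4a1 and 6 for Col4a2 were above the WT maximum. Their annotated exons share 22 bases on opposite strands, a stretch where the kit, which does not mark strand, cannot tell them apart.

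Col4a5 and Col4a6, whose chains form a further type IV network in smooth muscle and some epithelial basement membranes, lie head to head on the X chromosome with starts 1309 bases apart. Col4a5 (141475385 to 141689234) had 6.95, 11.8 and 13.9 FPKM as lowest, median and highest in HIF2 and 1.46, 3.17 and 5.54 FPKM in WT, with every HIF2 library above every WT library. It rose by 1.56 (SE 0.20, limma adjusted p = 5.26e-05). Col4a6 (141165403 to 141474076) had 1.085, 2.39 and 4.42 FPKM in HIF2 and 0.325, 0.8 and 1.44 FPKM in WT, with 8 HIF2 libraries above the WT maximum, and rose by 0.86 (SE 0.17, limma adjusted p = 0.00153). The HIF2 libraries with little muscle RNA were not the lower ones here. HIF2 replicates 6 to 8 had 7.4 to 13.9 FPKM of Col4a5 and 1.71 to 4.42 FPKM of Col4a6, and HIF2 replicates 0 to 5 had 6.95 to 12.4 and 1.085 to 2.71 FPKM. With the smooth muscle covariate the changes were 1.33 for Col4a5 and 0.97 for Col4a6, and without WT replicate 3 and HIF2 replicates 0 to 5 they were 1.67 and 1.14. Both genes passed in each of these fits.

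All 4 tested type VI genes of 6 rose. Col6a1, Col6a2 and Col6a3 encode the chains of the beaded microfibrils that surround many cells. Col6a1 (chromosome 10, 76708792 to 76726168) had 11.98, 37.8 and 59.0 FPKM as lowest, median and highest in HIF2 and 2.69, 7.89 and 19.6 FPKM in WT, and rose by 2.07 (SE 0.33, limma adjusted p = 0.000361). Col6a2 (chromosome 10, 76595762 to 76623630) had 11.2, 30.7 and 50.25 FPKM in HIF2 and 2.86, 6.2 and 16.7 FPKM in WT, and rose by 2.00 (SE 0.31). Col6a3 (chromosome 1, 90765923 to 90843971) had 7.59, 29.5 and 39.3 FPKM in HIF2 and 1.64, 4.11 and 13.2 FPKM in WT, and rose by 2.30 (SE 0.33, limma adjusted p = 0.000142). For each of the 3 genes, 7 of the 9 HIF2 libraries exceeded the highest WT library. They passed in both alternatives that deal with muscle RNA, with changes of 1.08 to 1.22 with the covariate and 1.40 to 1.58 in the libraries with little muscle RNA.

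Col6a4, a chain that can take the place of the Col6a3 product in mice (chromosome 9, 105989454 to 106096783), had another pattern across libraries. It had 2.835, 6.10 and 14.2 FPKM as lowest, median and highest in HIF2 and 0.694, 1.49 and 3.88 FPKM in WT, and rose by 1.33 (SE 0.26, limma adjusted p = 0.00146). HIF2 replicates 6 to 8 had 7.11 to 14.2 FPKM, above all of HIF2 replicates 0 to 5, which had 2.835 to 6.98 FPKM. The change was 1.58 (SE 0.34) with the covariate and 2.1 (SE 0.27) without WT replicate 3 and HIF2 replicates 0 to 5. In that last fit it was the highest change among the 23 genes. Whether the change in Col6a4 differs from that in the other chains was not tested. The per-library values of Col6a4 and Col5a3 are shown because of their pattern, a choice made after they were seen. Exons of Col6a4 share 127 and 162 bases with 2 annotated transcripts on the opposite strand, so a part of its reads could belong to these.

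**Figure D4:**
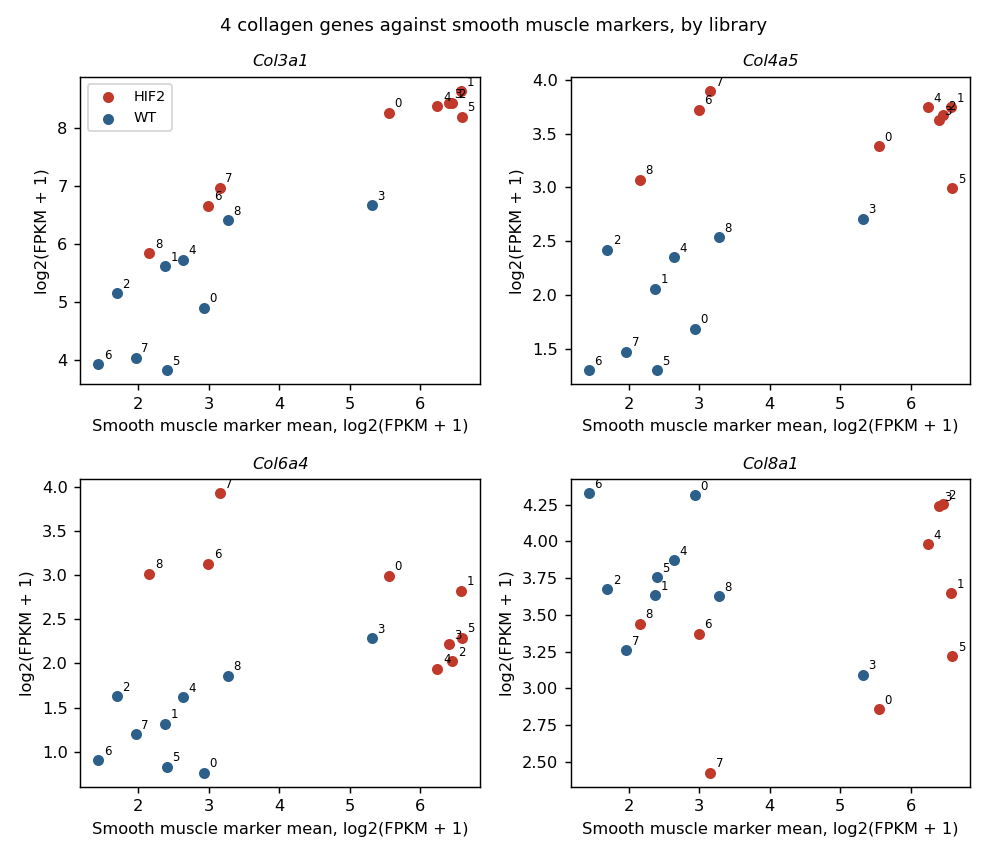
Level of Col3a1, Col4a5, Col6a4 and Col8a1 (log2 of FPKM + 1, vertical axes) against the mean of the smooth muscle markers on the same scale (horizontal axes), 1 point per library with its replicate number, HIF2 in red and WT in blue. Col3a1 is highest in HIF2 replicates 0 to 5, which have the most muscle RNA, HIF2 replicates 6 to 8 carry as much Col4a5 as the other HIF2 libraries and more Col6a4, and Col8a1 shows no separation of the groups.

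The 3 tested fibril-associated collagens of 9 rose. Col12a1, which sits on the surface of type I fibrils (chromosome 9, 79598991 to 79718831), had 5.54, 15.7 and 26.6 FPKM as lowest, median and highest in HIF2 and 1.25, 2.62 and 6.0 FPKM in WT. It rose by 2.00 (SE 0.27, limma adjusted p = 7.95e-05), with 8 HIF2 libraries above the WT maximum. Col16a1 (chromosome 4, 130047840 to 130099283) had 4.04, 7.67 and 11.7 FPKM in HIF2 and 2.15, 2.93 and 4.07 FPKM in WT, again with 8 HIF2 libraries above the WT maximum. Its change of 1.21 (SE 0.15) had the smallest adjusted p of the members (limma adjusted p = 2.79e-05). Col14a1, a related fibril-coating chain (chromosome 15, 55307750 to 55520803), behaved otherwise. It had 0.462, 7.63 and 9.7 FPKM in HIF2 and 0.235, 0.452 and 2.39 FPKM in WT, and rose by 1.55 (SE 0.40, limma adjusted p = 0.00974). HIF2 replicates 6 to 8 had 0.462 to 1.16 FPKM, within the WT range. Its change was 0.16 with the smooth muscle covariate and 0.22 in the libraries with little muscle RNA, and passed in neither, while Col12a1 at 1.25 and 1.39 and Col16a1 at 0.89 and 0.87 passed in both.

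Both multiplexins, collagens of the basement membrane zone that carry glycosaminoglycan chains, rose. Col18a1, whose cleavage gives endostatin (chromosome 10, 77052178 to 77166548), had 5.11, 8.22 and 47.8 FPKM as lowest, median and highest in HIF2 and 0.927, 1.67 and 4.29 FPKM in WT. All HIF2 libraries were above all WT libraries, and HIF2 replicate 0 stood apart at 47.8 FPKM with the next HIF2 library at 12.8 FPKM. The change was 1.99 (SE 0.32, limma adjusted p = 0.000321), and 1.73 without HIF2 replicate 0. Col15a1 (chromosome 4, 47208161 to 47313167) had 2.16, 8.24 and 15.9 FPKM in HIF2 and 0.643, 1.665 and 4.69 FPKM in WT. It rose by 1.5 (SE 0.30, limma adjusted p = 0.00175), a call lost under both alternatives that deal with muscle RNA, at 0.59 with the covariate and 0.73 in the libraries with little muscle RNA. Col23a1, the only tested transmembrane collagen of 4, was low, with 0.044, 2.03 and 4.0 FPKM in HIF2 and 0.0547, 0.282 and 0.972 FPKM in WT. It rose by 0.94 (SE 0.26, limma adjusted p = 0.014) and passed under neither alternative, at 0.12 in each. Col23a1 and Col5a3 were also the 2 genes that the exact rank test did not call.

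Col8a1 and Col10a1, the 2 tested short-chain network collagens, were the exceptions. Col8a1, a chain of the vessel wall and other sheet-like matrices (chromosome 16, 57624258 to 57754737), had 4.37, 9.85 and 18.1 FPKM as lowest, median and highest in HIF2 and 7.52, 11.8 and 19.1 FPKM in WT. No HIF2 library exceeded the highest WT library. The change was -0.24 (SE 0.23, limma adjusted p = 0.522), so a difference was not detectable with these libraries. It was -0.73 (SE 0.26) without WT replicate 3 and HIF2 replicates 0 to 5, and did not pass there. Col8a1 held between 0.607% and 5.01% of the summed collagen FPKM in HIF2, with a median of 1.77%, and between 2.32% and 27.8% in WT, with a median of 9.54%. That sum had a median of 838 FPKM in HIF2 and 123 FPKM in WT, so the lower share does not show less Col8a1 RNA. Col10a1, known from growth cartilage (chromosome 10, 34389981 to 34397085), had 0.644, 1.42 and 1.76 FPKM in HIF2 and 0.715, 1.54 and 1.72 FPKM in WT. Its change was -0.03 (SE 0.13, limma adjusted p = 0.921), and its exons share 18 bases with those of Nt5dc1 on the opposite strand.

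The other 20 members had a mean below 1 FPKM over all libraries, from 0.00663 to 0.921 FPKM, and reached at most 2.23 FPKM in any library. They included the cartilage genes Col2a1, Col9a1, Col9a2, Col9a3, Col11a1 and Col11a2, the kidney-type chains Col4a3 and Col4a4, and the epithelial anchoring genes Col7a1 and Col17a1. The remainder were Col6a5, Col6a6, Col8a2, Col13a1, Col19a1, Col20a1, Col22a1, Col24a1, Col25a1 and Col28a1. Their HIF2 median was above their WT median in 18 of 20, and in 43.5% of the 8472 rows below the filter with a mean at least that of the lowest collagen row. Where no filter was applied, 4 of the 20 were called higher and 0 lower, against 7.89% of all 27131 rows called higher. These 4 were Col8a2, Col9a2, Col11a1 and Col25a1, with log2 changes of 0.62, 0.40, 0.34 and 0.39, named after their values were seen. Col8a2, the partner chain of Col8a1, had 0.057, 1.05 and 2.23 FPKM as lowest, median and highest in HIF2 and a median of 0.102 and a maximum of 0.796 FPKM in WT. Col17a1, the hemidesmosome collagen of basal epithelial cells, had a median of 0.54 FPKM in HIF2 and 0.454 FPKM in WT and was not called. Per-library values of these 2 genes were chosen after they were seen.

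Pairs of chains that share a trimer, a class or a place in the fibril were compared as a log2 ratio of FPKM + 1 within each library. Over 9 pairs, an exact 2-sided permutation test over libraries with adjustment over the pairs called 1. The Col4a5 to Col4a6 ratio was 1.83 ± 0.216 in HIF2 and 1.13 ± 0.341 in WT (SD, n = 9 each), a difference of 0.69 (exact permutation adjusted p = 0.00185), and higher than the WT mean in 9 of 9 HIF2 libraries. Col4a6 is low, and this call rested on the pseudocount. With a pseudocount of 0.1 or 0.01 the difference was 0.42 or 0.35 (exact permutation adjusted p = 0.0907 or 0.121, within a range of 0.00074 to 0.121 over all alternatives). The median ratio of FPKM with nothing added was 4.67 in HIF2 and 3.82 in WT.

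The other 8 pairs did not pass. Col1a1 to Col1a2 differed by 0.26 (exact permutation adjusted p = 0.104), with a median FPKM ratio of 0.907 in HIF2 and 0.608 in WT. Without HIF2 replicates 6, 7 and 8 it differed by 0.46 and without HIF2 replicate 8 by 0.34, and passed in both, whereas without WT replicate 3 and HIF2 replicates 0 to 5 it differed by -0.08. Col5a1 to Col5a2 differed by -0.34 (exact permutation adjusted p = 0.0876). That pair passed without HIF2 replicates 6, 7 and 8, at -0.56, and without HIF2 replicate 7, at -0.42, and was at 0.08 without WT replicate 3 and HIF2 replicates 0 to 5. Col4a1 to Col4a2 differed by 0.21 (exact permutation adjusted p = 0.0859) and passed without WT replicate 1, at 0.25, or HIF2 replicate 8, at 0.23. Col6a3 to Col6a1 differed by 0.23 (exact permutation adjusted p = 0.0876) and passed without HIF2 replicate 0, at 0.30. Col6a1 to Col6a2 lay near equality in both groups, at 0.20 ± 0.102 in HIF2 and 0.14 ± 0.192 in WT. Col3a1 to Col1a1 differed by -0.06, and its sign turned in some alternatives. Col18a1 to Col15a1 differed by 0.49 and Col14a1 to Col12a1 by -0.44, and both passed without WT replicate 3 and HIF2 replicates 0 to 5, at 0.84 and -1.17. The Col14a1 to Col12a1 value turned to 0.015 with a pseudocount of 0.1.

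**Figure D5:**
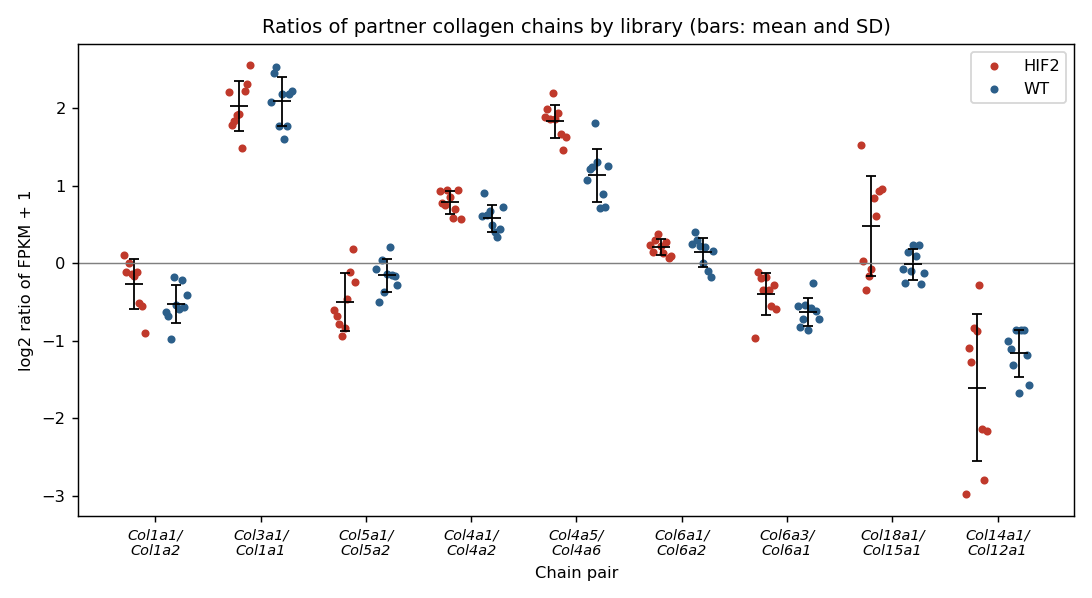
Log2 ratio of FPKM + 1 of 9 pairs of collagen chains in each library, HIF2 left in red and WT right in blue within each pair, with bars for the mean and SD. The Col4a5 to Col4a6 ratio is higher in HIF2 with the groups partly overlapping, Col6a1 to Col6a2 lies close to 0 in both groups, and Col18a1 to Col15a1 and Col14a1 to Col12a1 spread widely within HIF2.

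The composition of collagen RNA was described by shares of the summed collagen FPKM, which is scaled per transcript length. Col3a1 held 28.8% to 39.9% in HIF2, with a median of 35.3%, and 20.1% to 35.3% in WT, with a median of 28.0%. Col1a1 and Col1a2 together held 12.5% to 26.2% in HIF2 and 10.7% to 19% in WT. The type IV chains held 10.4% to 24.5% in HIF2, with the highest share in HIF2 replicate 0, and 9.55% to 15.7% in WT. These shares overlapped between the groups and were not tested.

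Genes that modify, cut, bind or sense collagen were counted from lists of their own. Of 22 tested genes for procollagen folding and modification, 12 rose and 2 fell in HIF2, against 11.0% and 11.1% of all genes. Plod2, a lysyl hydroxylase, had 7.37, 9.18 and 14.1 FPKM as lowest, median and highest in HIF2 and 0.298, 0.838 and 2.02 FPKM in WT, so that the groups did not overlap, and rose by 2.46 (SE 0.16, limma adjusted p = 4.94e-08). Serpinh1, the collagen chaperone HSP47, rose by 2.56, P4ha1, a prolyl 4-hydroxylase subunit, by 1.13, and Crtap, of the prolyl 3-hydroxylation complex, by 0.74, and all 4 passed with the smooth muscle covariate. The 2 that fell were Creb3l1, at -0.69, and Mia3, a gene for procollagen export from the endoplasmic reticulum, at -0.58, both named after their values were seen. With the covariate the list had 8 higher and 3 lower, against 6.85% and 7.32% of all genes.

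All 8 tested genes for procollagen cleavage and cross-linking rose, and 3 rose with the covariate. Over all genes, 11.0% were called higher and 11.1% lower, and 6.85% and 7.32% with the covariate. Bmp1, which removes the C-terminal propeptide, rose by 1.09, Adamts2, which removes the N-terminal propeptide, by 1.47, Loxl2, a lysyl oxidase, by 2.05, and Tgm2, a transglutaminase, by 1.24. Of 20 proteoglycans and glycoproteins that bind collagen, 17 rose and 0 fell, among them Sparc by 2.65, Fn1 by 2.53, Nid1 by 2.42 and Bgn by 1.87, and 4 of 20 rose with the covariate. Of 6 collagen receptor genes, 4 rose, namely Ddr2 by 1.86, Itga1 by 1.38, Mrc2 by 0.92 and Itgb1 by 0.59, and 0 with the covariate. Of 15 TGF-beta pathway genes, 8 rose and 1 fell, with Ltbp3 at 1.11, Tgfbr2 at 0.88 and the inhibitor gene Smad7 at -0.41, and 3 rose and 1 fell with the covariate. TGF-beta is a known inducer of collagen genes.

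Markers of cell types that make collagen and of other cell types were counted as well. Their part in the collagen changes was not tested apart from the alternatives above. Of 13 tested smooth muscle markers, 12 rose in the fit with all libraries, where 11.0% of all genes were called higher and 11.1% lower. For fibroblasts, 8 of 11 markers other than collagens rose and 1 fell, Dpep1 at -0.98. The 8 include Fn1, also counted above among the collagen-binding glycoproteins, so these lists overlap. Pdgfra, a receptor of fibroblasts, had 7.61, 13.1 and 35.1 FPKM as lowest, median and highest in HIF2 and 1.74, 3.33 and 6.37 FPKM in WT, with no overlap of the groups, and rose by 1.84. The summed fibroblast list lay between 566 and 716 FPKM in HIF2 replicates 0 to 5, above every WT library. It lay between 213 and 230 FPKM in HIF2 replicates 6 to 8, below every WT library, against 304 to 390 FPKM in WT. Dpep1, the marker that fell, made up a large part of the WT sums, at 182 to 244 FPKM in WT and 53.9 to 183 FPKM in HIF2. The sum therefore does not show how the other fibroblast markers lay. All 10 endothelial markers rose, with a sum of 17.8 to 107 FPKM in HIF2 and 5.29 to 23.7 FPKM in WT. All 3 tested enteric neuron and glia markers rose, with sums of 5.50 to 52.0 FPKM in HIF2 and 1.87 to 7.95 FPKM in WT. Mesothelial markers rose in 2 of 3, with sums of 5.06 to 15.8 FPKM in HIF2 and 1.18 to 3.03 FPKM in WT. All 8 macrophage markers rose, with sums of 30.8 to 118 FPKM in HIF2 and 7.55 to 48.5 FPKM in WT. Blood markers rose in 3 of 4, with sums of 4.99 to 136 FPKM in HIF2 and 0.749 to 9.97 FPKM in WT. Of 12 epithelial markers, 0 rose and 5 fell, which were Cdx1 at -0.54, Cdx2 at -0.60, Krt20 at -0.67, Vil1 at -0.40 and Cdh1 at -0.38, the last named after its value was seen. In none of these marker lists was a matched gene at 0 in every library. With the smooth muscle covariate, where 6.85% of all genes were called higher and 7.32% lower, 0 of 13 smooth muscle, 2 of 11 fibroblast, 2 of 10 endothelial, 2 of 3 enteric neuron and glia, 1 of 3 mesothelial, 6 of 8 macrophage, 0 of 4 blood and 1 of 12 epithelial markers rose. In that fit 1 fibroblast and 2 epithelial markers fell. The covariate is the mean of the smooth muscle markers themselves, so their count of 0 follows from the fit and tests nothing.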

How the data were processed

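RNA with poly(A) from colon tissue was sequenced from TruSeq RNA kit v2 libraries, per the labels' protocols, and the tissue was fresh or frozen. The deposited values were FPKM made by the authors, 1 column per library. Per the submitters' processing notes, the build was mm10 and the tools included TopHat2 2.0.9 and Cuffdiff 2.1.1, with Bowtie2 2.1.0.0 and FastQC also named. The sources used here give no depth, strand setting or annotation release, so no interval from counting error was computed. All 18 columns were used, and no 2 libraries were treated as duplicates (highest correlation 0.931).

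Values were taken as log2(FPKM + 1) without further scaling. Genes with a mean of at least 1 FPKM over the 18 libraries, 13976 of 27131, were tested in R 4.3.3 by limma 3.58.1 (2-sided, prior variance following the mean level), with p-values adjusted by Benjamini-Hochberg at 0.05. The procedure was tested on simulated data. For chain ratios an exact permutation test over libraries was used, with 48620 arrangements and a smallest possible p of 4.11e-05. The members, lists, tests and alternatives were chosen with earlier results of these data known. Per-group values were set to be printed for the 2 most abundant tested members of each class, the 4 largest changes in each direction and both chains of each pair, and from each other list up to 4 called genes with the smallest p were named, with exceptions marked in the text. Sequences are RefSeq's in GRCm38.p6 and coordinates are 1-based from GENCODE M21 of GRCm38, which mm10 denotes. Promoter windows matched 35 of the 43 members. Alternatives were pseudocounts of 0.1 and 0.01, a filter at 5 FPKM or none, 3 scalings, a replicate block, array weights, covariates for smooth muscle markers and the Y-linked gene Ddx3y, an exact rank test, and libraries left out. The filter and gene set stayed the same when libraries were left out.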

Additional observations from a re-analysis of the deposited data

Results flagged for a closer look

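Each of 23 genes and 9 chain ratios was checked in both groups for a library standing apart from the other 8, 64 groups in all, of which chance flags about 1 in 20. Col18a1 in HIF2 replicate 0 was the only such value, at 47.8 FPKM, with a gap to the next library of 0.609 of the group's range on the log2 scale. In the same library Col4a1 and Col4a2 were the highest of HIF2 at 157 and 82.2 FPKM.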

How the results depend on the processing

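The count of 21 collagen genes higher and 0 lower was unchanged without any single library, with columns scaled to a common sum or by median ratios, with quantile normalization, array weights, the replicate block and the Ddx3y covariate. It was 20 at a pseudocount of 0.01, where Col23a1 lost its call, 14 with the filter at 5 FPKM, which tests fewer genes, 25 with no filter, 12 without WT replicate 3 and HIF2 replicates 0 to 5, and 5 without WT replicates 0 to 4 and HIF2 replicates 0 to 5 (chosen after seeing the data), where fewer libraries remain. Over all genes, 640 were higher and 1256 lower with the filter at 5 FPKM, and 957 were higher and 1023 lower with the smooth muscle covariate, and 620 and 720 in the last of these subsets. Leaving out 1 library gave 1333 to 1653 genes higher and 1343 to 1662 lower. Of 751 values of single collagen genes under alternatives, 712 kept direction and call and 33 lost the call. Many of the 751 come from leaving out 1 library, where no called gene lost its call. Of the 21 called genes, 5 kept the call in every alternative. Another 6 values changed sign, all in genes that were not called. Col10a1 was at 0.039 with array weights, 0.059 without HIF2 replicates 6, 7 and 8 and -0.0804 to 0.034 without 1 library (0.0028 without WT replicate 5, 0.018 without HIF2 replicate 5), and Col8a1 at 0.0056 with array weights.

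Chain ratios moved more. Col4a5 to Col4a6 lost its call at pseudocounts of 0.1 and 0.01 (0.42 and 0.35). Col14a1 to Col12a1 turned to 0.015 and 0.15 there. Without HIF2 replicates 6, 7 and 8, Col1a1 to Col1a2 (0.46) and Col5a1 to Col5a2 (-0.56) passed. Without WT replicate 3 and HIF2 replicates 0 to 5, Col1a1 to Col1a2 (-0.083), Col3a1 to Col1a1 (0.23) and Col5a1 to Col5a2 (0.076) turned, and Col18a1 to Col15a1 (0.84) and Col14a1 to Col12a1 (-1.17) passed, where the smallest p of 3 against 8 libraries is 0.00606. Without 1 library the ranges were 0.21 to 0.34 for Col1a1 to Col1a2, -0.13 to 0.0038 for Col3a1 to Col1a1, -0.42 to -0.28 for Col5a1 to Col5a2, 0.18 to 0.25 for Col4a1 to Col4a2, 0.64 to 0.78 for Col4a5 to Col4a6, 0.026 to 0.098 for Col6a1 to Col6a2, 0.198 to 0.303 for Col6a3 to Col6a1, 0.36 to 0.6 for Col18a1 to Col15a1 and -0.61 to -0.27 for Col14a1 to Col12a1. The causes were not tested.

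Replicate numbers are shared by the groups, but same-numbered libraries deviated together (correlation over 0.1) in 1 of 9 pairs (range -0.0333 to 0.112), so the numbers were not taken as pairs. With a replicate block, 21 collagen genes were higher, and over all genes 1355 higher and 1345 lower. Depth is unknown, so how far it limits the low genes could not be set.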
